A study of Mus musculus with 47 samples.

Results

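The Hox cluster genes are the 39 protein-coding mouse genes whose symbols are Hoxa, Hoxb, Hoxc or Hoxd followed by a number, out of 21887 protein-coding genes on chromosomes 1 to 19, X and Y. They were chosen by symbol alone, with no measured value, though with earlier results of these data known. A gene was counted as having a peak when a peak touched its span or the 2 kb to either side. Chromatin immunoprecipitation with sequencing was done in NMuMG cells, a mouse mammary gland epithelial line, as control cells and as Pbrm1 knockout (KO) cells. Pbrm1 encodes PBRM1, the bromodomain subunit that marks the PBAF form of the SWI/SNF chromatin remodeller, and the KO cells carry its disruption while the control cells do not. Cells of both genotypes were untreated (0 h) or had received transforming growth factor β1 (TGFβ1) at 5 ng/ml for 24 or 48 h, which was given to induce an epithelial to mesenchymal transition. Whether the KO cells are 1 clone or a mixed population is not given in the labels used here, and a peak list does not show whether PBRM1 protein was lost.

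The 47 samples were 32 libraries with a peak list and 15 inputs. PHF10, another PBAF subunit, was profiled in control cells at 0 h (2 libraries), 24 h (1) and 48 h (2) and in KO cells at 0 and 48 h (1 each). BRG1, the SWI/SNF ATPase, had 1 library, in control cells at 0 h. The stress-induced bZIP factor ATF3 was profiled in both genotypes at 0, 24 and 48 h, and the AP-1 factors FOSL2 and FOSB in both genotypes at 0 and 48 h. H3K4me3, H3K4me1, H3K27ac, H3K14ac and H3K18ac were profiled in control cells at 0 and 48 h. Each of these other groups had 1 library. Cells for PHF10, BRG1 and ATF3 were fixed with disuccinimidyl glutarate followed by formaldehyde, and cells for the AP-1 factors and the marks with formaldehyde alone.

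Replicates are not said to come from separate cultures, so the p-values in the text measure the spread between libraries. Read totals were not used, so library depth is unknown, and long lists can place a peak at more genes by their length alone. Lists ran from 2 to 158815 peaks, and 9 of them (ATF3 at 0 h in both genotypes and at 24 h in KO, FOSL2 at 0 h, and all 4 FOSB lists) held fewer than 200 peaks each. Those 9 lists had no peak at a Hox gene and touched 0.690% of all genes. Of 8 epithelial marker genes, 8 had H3K27ac and 8 had H3K4me3 at 0 h, against 2 and 4 of 8 markers of blood, endothelial, liver, neuronal and muscle cells.

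Hox genes encode homeodomain transcription factors that give cells their position along the body axis, and in mammals they lie in 4 clusters whose order along the chromosome follows the order of their expression along the embryo. Their chromatin is a textbook case of opposed Polycomb and trithorax control, with Polycomb keeping silent members repressed and the SWI/SNF ATPase Brahma first found as a trithorax-group activator of homeotic genes in flies. In the mammary gland, Hox genes of several clusters take part in development and in the patterning of the nipple and ducts. H3K4me3 marks CpG-rich promoters whether or not they are active, H3K4me1 lies at enhancers and at the flanks of promoters, and H3K27ac and H3K18ac mark active promoters and enhancers.

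The Hoxa cluster holds 11 genes on chromosome 6, Hoxb 10 on chromosome 11 (96194316 to 96368254), Hoxc 9 on chromosome 15 (102921131 to 103036856) and Hoxd 9 on chromosome 2 (74668225 to 74765142), in mm10. Hoxb13 stands apart from its cluster, 74720 bp from Hoxb9. By paralogue number, 8 genes are anterior (1 to 3), 15 central (4 to 8) and 16 posterior (9 to 13). Hox genes are short and crowded: their median span was 3737 bp, against 17169 bp over all genes. Their windows overlap, and the annotated spans of Hoxa3, Hoxb3 and Hoxd3 run over smaller members (Hoxa4 to Hoxa6, Hoxb4 and Hoxd4), so 1 peak can count for several genes. The 39 windows together cover 383440 bp.

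Promoter sequences were at hand for 22 of the 39 genes (24 windows of 300 bases, RefSeq, GRCm38.p6, from 250 bases before to 50 after a start). These 4 are shown because they carried different combinations of the factors and marks. They are given 5′ to 3′ on the gene's strand, with CpG dinucleotides in capitals.
Hoxa5 promoter: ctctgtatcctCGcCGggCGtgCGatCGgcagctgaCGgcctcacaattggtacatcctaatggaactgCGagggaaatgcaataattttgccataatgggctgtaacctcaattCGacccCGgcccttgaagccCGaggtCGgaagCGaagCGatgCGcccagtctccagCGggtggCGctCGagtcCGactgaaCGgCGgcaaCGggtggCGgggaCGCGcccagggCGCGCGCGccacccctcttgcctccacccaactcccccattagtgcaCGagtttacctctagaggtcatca
Hoxa10 promoter, upstream start: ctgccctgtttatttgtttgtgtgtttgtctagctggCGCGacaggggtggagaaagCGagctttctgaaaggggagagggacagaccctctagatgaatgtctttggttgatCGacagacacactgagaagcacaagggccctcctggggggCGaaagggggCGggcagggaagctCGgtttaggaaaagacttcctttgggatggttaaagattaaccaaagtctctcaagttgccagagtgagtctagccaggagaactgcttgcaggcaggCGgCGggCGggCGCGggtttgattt
Hoxd10 promoter: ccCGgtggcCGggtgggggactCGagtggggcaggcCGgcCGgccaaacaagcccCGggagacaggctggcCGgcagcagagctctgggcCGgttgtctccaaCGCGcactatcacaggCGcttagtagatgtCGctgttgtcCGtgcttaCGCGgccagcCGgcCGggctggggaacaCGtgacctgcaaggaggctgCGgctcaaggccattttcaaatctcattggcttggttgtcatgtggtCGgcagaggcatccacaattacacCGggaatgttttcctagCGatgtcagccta
Hoxb1 promoter: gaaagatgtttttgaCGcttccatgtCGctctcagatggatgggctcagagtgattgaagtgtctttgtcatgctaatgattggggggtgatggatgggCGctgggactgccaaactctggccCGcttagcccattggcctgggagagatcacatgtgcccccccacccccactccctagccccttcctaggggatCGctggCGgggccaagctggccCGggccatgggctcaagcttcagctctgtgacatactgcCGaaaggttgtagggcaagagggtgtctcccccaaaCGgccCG

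The Hoxa5 window (chr6:52204538-52204837, minus strand) held 29 CpG, and the gene had H3K27ac outside it (48.1-fold at 0 h, 49.6-fold at 48 h). The window was overlapped by PHF10 in all 7 PHF10 lists and by H3K4me3 at both times, but not by BRG1, H3K4me1 or H3K27ac. At the upstream Hoxa10 start (chr6:52240805-52241104, minus strand, 12 CpG) the order was turned round: BRG1, H3K4me3 and H3K27ac covered it at 0 h, and PHF10 was called there in the 48 h KO list but in no control list. The Hoxd10 window (chr2:74691641-74691940, plus strand, 22 CpG) carried H3K4me3 and H3K4me1 at both times with neither BRG1 nor H3K27ac, and PHF10 in 1 of the 2 replicates at 0 h. The Hoxb1 window (chr11:96365508-96365807, plus strand, 10 CpG) carried H3K4me3 at both times, had no PHF10 at 0 or 24 h, and had PHF10 in 1 of 2 control replicates and in KO cells at 48 h. CpG content was close to that of other promoters, with a median of 14.5 CpG per window (4 to 45) against 13 over 21263 windows of all genes. The AP-1 motif TGANTCA (both strands) was in 1 Hox window, 1 of those of Hoxd11, against 6.99% of all windows. Its relative the cAMP response element TGACGTCA was in 0 of 24 against 2.23%, and TATAAA on either strand in 4 of 24 against 12.6%. Such letter matches describe the windows and do not show binding.

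H3K4me3 was called at every Hox gene at both times, 39 of 39 at 0 h (68.8% of all genes) and 39 of 39 at 48 h (68.7%). The clusters were dense in it: 25.3 peaks per 100 kb of Hox windows at 0 h, against 2.22 in the windows of all genes, covering 16.2% of Hox bases against 1.58%. The strongest H3K4me3 peak of a Hox gene ran from 4.24-fold (Hoxb13) to 46.2-fold at 0 h, the latter a peak shared by Hoxa3, Hoxa5 and Hoxa6. Fold enrichment here is a peak's ChIP over input ratio as the authors gave it, which can be ranked within a list but not compared between lists. The Hox genes were broadly marked but not strongly: their median lay at the 26.4th percentile of all genes with H3K4me3 at 0 h and at the 26.7th at 48 h. At 48 h the peak of Hoxa3, Hoxa5 and Hoxa6 had 31.5-fold. Hoxb13, expressed in the prostate and hindgut, and Hoxc10, a lumbar and hindlimb gene, were lowest at 0 h, with 4.24-fold and 5.06-fold.

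H3K4me1 accompanied H3K4me3 at nearly all members. It was called at 38 of 39 at 0 h (41.9% of all genes) and 35 of 39 at 48 h (36.0%). Hoxb13 was the gene without it at either time, and 3 genes, Hoxb1 and Hoxc10 among them, had it at 0 h and not at 48 h (11.3% of all genes in that class). With H3K4me3 and H3K4me1 together at 0 h there were 38 Hox genes, against 41.1% of all genes, and against 59.7% of the genes that had H3K4me3. Of the 97 H3K4me3 peaks at Hox genes at 0 h, 71 (73.2%) overlapped an H3K4me1 peak, against 53.9% of those at all genes. H3K4me1 ranked higher within its list than H3K4me3 did within its own, at the 51.7th percentile in the median at 0 h and the 72.2nd at 48 h. The highest at 0 h were Hoxb6 and Hoxb7, which share a peak of 5.02-fold (96.2nd percentile), with Hoxc12 and Hoxb8 next at 4.79-fold. Hoxb9 led at 48 h (24.8-fold, 94.5th percentile), followed by Hoxc9 (23.6) and Hoxb2 (22.8). With each pair of lists reduced to equal length the H3K4me1 counts were 30 at 0 h and 35 at 48 h, so the direction of this difference turned. With peaks of at least 5-fold the counts were 2 and 34. Fold values in the 2 lists have different scales, however, with medians of 3.39 at 0 h and 8.64 at 48 h at all genes. Both lists are single libraries without a test.

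**Figure D1:**
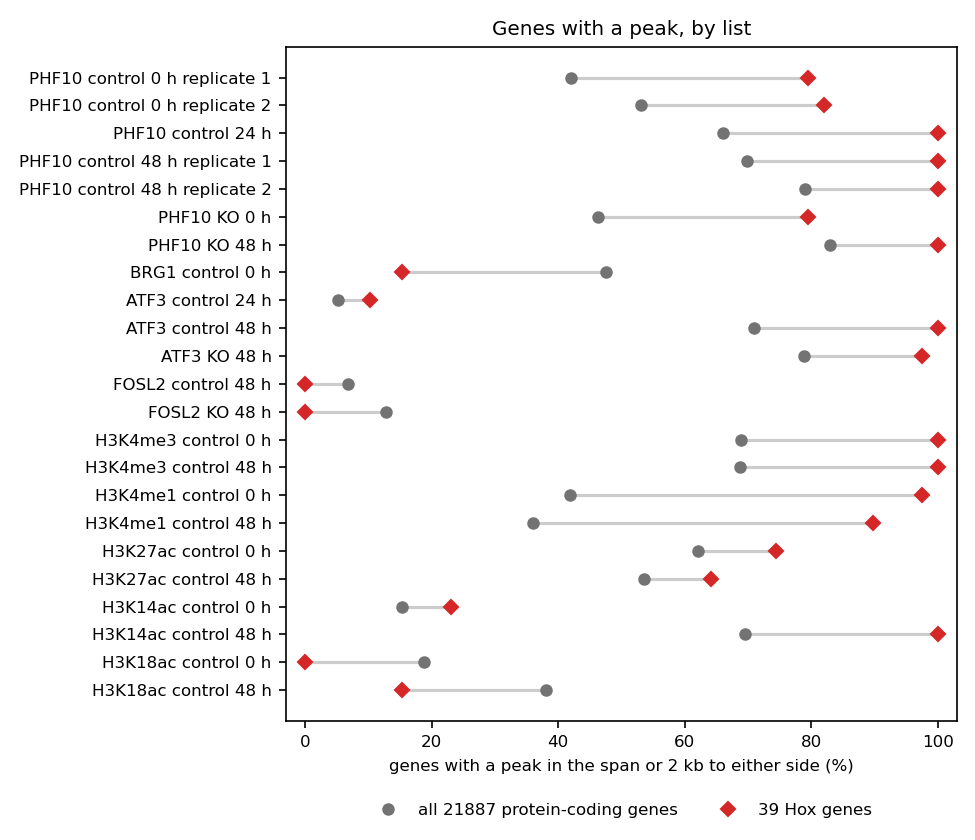
Percentage of genes with a peak in the span or 2 kb to either side in the 23 longer lists (horizontal axis, percent), for the 39 Hox genes (red diamonds) and all 21887 protein-coding genes (grey circles). The Hox genes lie to the right for PHF10, H3K4me3 and H3K4me1 and to the left for BRG1, FOSL2 and H3K18ac.

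H3K27ac separated the clusters. At 0 h it was called at 29 Hox genes (62.1% of all genes), namely 11 of 11 Hoxa, 8 of 10 Hoxb, 6 of 9 Hoxc and 4 of 9 Hoxd genes. At 48 h it was called at 25 (53.5% of all genes), with 11 Hoxa, 7 Hoxb, 2 Hoxc and 5 Hoxd genes. Since every Hox gene had H3K4me3, 10 had it without H3K27ac at 0 h, a class that holds 7.68% of all genes. These were Hoxb1, Hoxb13, Hoxc4, Hoxc8, Hoxc10, Hoxd4, Hoxd8, Hoxd10, Hoxd11 and Hoxd12. Among genes with H3K4me3, 88.8% also had H3K27ac, against 29 of the 39 Hox genes.

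The highest H3K27ac values of Hox genes lay in the anterior and central part of Hoxa. Among all genes with H3K27ac, Hoxa3 and Hoxa4 ranked at the 60.8th percentile at 0 h and the 62.9th at 48 h. Hoxa5 and Hoxa6 ranked at the 49.3rd and the 51.9th, so these values were high among Hox genes alone. Hoxa3 and Hoxa4, which help pattern the pharynx and neck, shared the highest peak at 0 h, 69.5-fold (chr6:52190942-52192378), and had 74.9-fold at 48 h. Hoxa5 and Hoxa6 shared peaks of 48.1-fold and 49.6-fold, and Hoxa5 is known for its part in lung and mammary development. From there the values stepped down to Hoxa10 at both times. Hoxa7 had 26.9-fold at 0 h and 21.8-fold at 48 h, Hoxa9 16.1 and 6.76, and Hoxa10 5.75 and 3.87. Beyond it Hoxa11 had 5.75 and 3.97 and Hoxa13 5.07 and 5.10. Hoxa2 broke that order, with 5.94-fold and 4.41-fold beside its neighbour Hoxa3 with the higher values.

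Outside Hoxa, H3K27ac was weak wherever it was called. At 0 h the highest values were 8.10-fold in Hoxb (Hoxb7 and Hoxb8), 6.86 in Hoxc (Hoxc5) and 5.22 in Hoxd (Hoxd3). At 48 h they were 16.9 in Hoxb (Hoxb9), 5.29 in Hoxc (Hoxc9) and 4.17 in Hoxd (Hoxd1). Over all Hox peaks the median was 5.43-fold at 0 h and 4.45 at 48 h, against 16.1 and 23.2 for peaks at all genes. Of all members Hoxb9 differed most in rank between the times: it stood at the 17.9th percentile at 0 h and the 31.7th at 48 h, and Hoxb7 and Hoxb8 at the 20.3rd and the 29.5th. Hoxa9 had 28.9 and 17.1 on the same scale. These are ranks from lists of unequal length and a single library each, so they show no change.

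Genes with H3K27ac at 0 h and not at 48 h were Hoxb5, Hoxc5, Hoxc6, Hoxc11 and Hoxc12 (5 genes, with 9.48% of all genes in that class), and Hoxd8 was the reverse (1 gene, 0.873%). All 6 lay low in the list that called them, from 3.41-fold (Hoxc6) to 6.86-fold (Hoxc5). Reduced to equal length, the lists gave 23 Hox genes at 0 h and 25 at 48 h, which turns the direction of the difference.

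**Figure D2:**
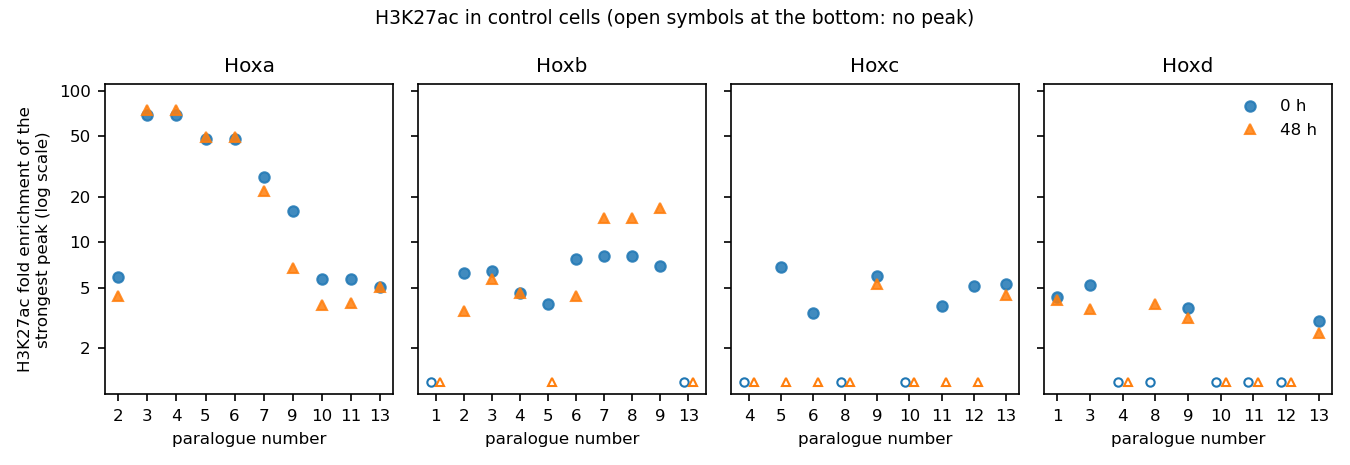
Authors' fold enrichment of the strongest H3K27ac peak at 38 of the 39 Hox genes (vertical axis, log scale) by paralogue number in the 4 clusters, in control cells at 0 h (circles) and 48 h (triangles), 1 library each, with open symbols for genes without a peak. Hoxa3 and Hoxa4 have 69.5 at 0 h and 74.9 at 48 h, and values stay at or under 16.9 in the other clusters.

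H3K18ac lay mostly in the same stretch of Hoxa. H3K14ac did not keep to it, and at 0 h was called at 4 Hoxa, 1 Hoxb and 4 Hoxd genes. H3K18ac was called at 0 Hox genes at 0 h (18.8% of all genes) and at 6 at 48 h (38.0%), all 6 in the class of 48 h only (22.5%). The 0 h lists of H3K18ac and H3K14ac alone carry a header and rounded values, so the lists of the 2 times may have been made differently, and the part of this in the counts was not tested. They included Hoxa3, Hoxa4, Hoxa5, Hoxa6 and Hoxb9, and among genes with H3K4me3 the share with H3K18ac at 48 h was 52.8%. Its 5 peaks all overlapped H3K27ac peaks of 0 h and of 48 h. The strongest lay in Hoxa3 and Hoxa4 (40.8-fold, chr6:52191093-52191998), inside their H3K27ac peak of 0 h, and the next at Hoxa5 and Hoxa6 (15.9). Hoxb9, the gene of Hoxb with the highest H3K27ac at 48 h, was the member outside Hoxa with H3K18ac (5.70-fold). Per length, H3K18ac at 48 h was as frequent in Hox windows as in those of all genes, 1.30 against 1.17 peaks per 100 kb, where H3K4me3 was 23.0 against 2.10. Counted by gene it was rarer: 1 of 22 Hox genes (4.55%) had it within 2 kb of a start at 48 h, against 32.0% of all genes.

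H3K14ac was called at 9 Hox genes at 0 h (15.3% of all genes) and at 39 at 48 h (69.5%). The 30 genes at 48 h only stand beside 54.3% of all genes in that class. Its list grew from 3453 to 35270 peaks. Reduced to equal length, the lists gave 9 Hox genes at 0 h and 1 at 48 h, which turns the direction of the difference. The part of list length in these counts was not tested. The 9 genes with it at 0 h were Hoxa3, Hoxa4, Hoxa5, Hoxa6, Hoxb3, Hoxd8, Hoxd10, Hoxd11 and Hoxd13. Hoxa3 and Hoxa4 had the strongest peak at 0 h (7.66-fold) and Hoxa5 and Hoxa6 the next (6.85). At 48 h Hoxa3 and Hoxa4 had 31.2-fold (72.7th percentile). Hoxd10 and Hoxd11, a pair of limb genes, shared an H3K14ac peak at 0 h (6.10-fold) while having no H3K27ac at either time.

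**Figure D3:**
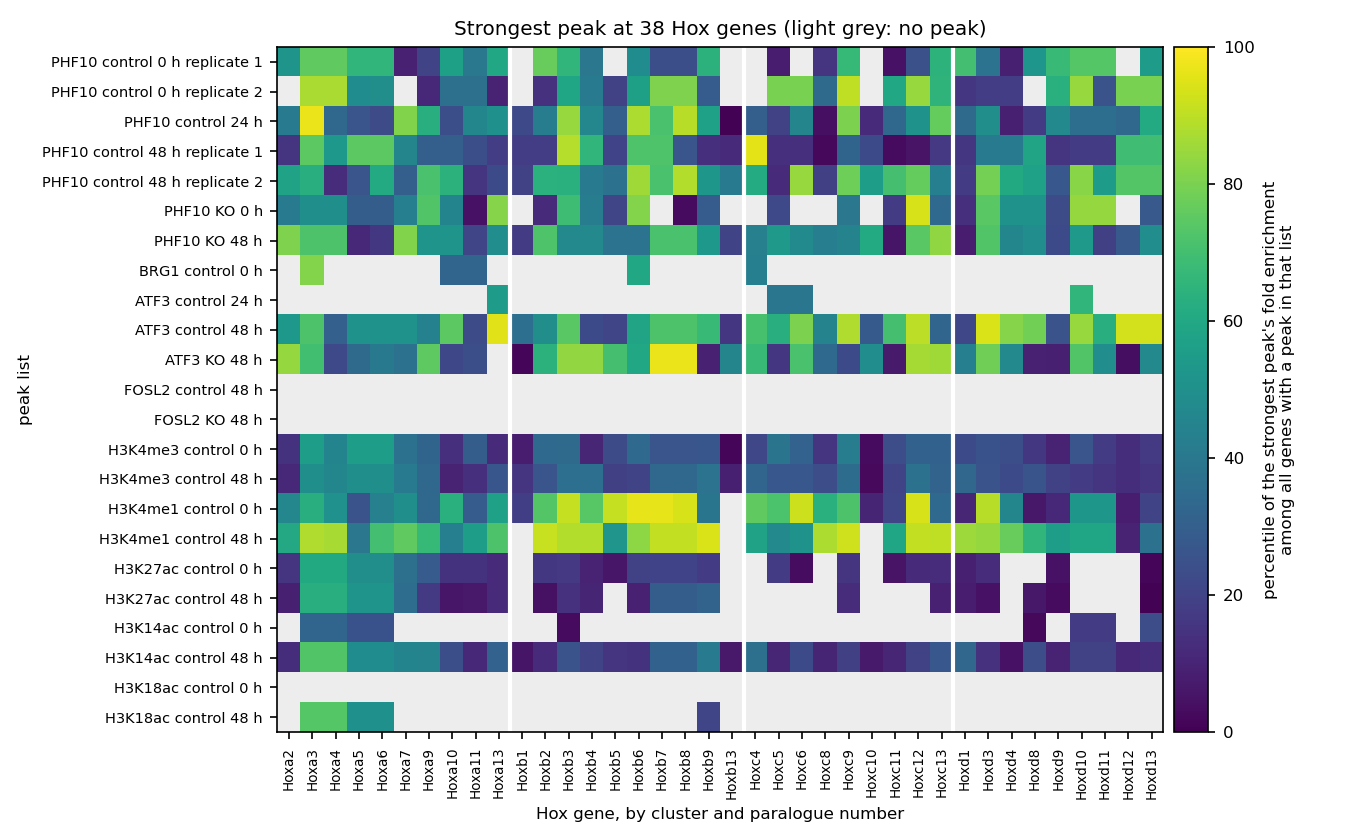
Percentile, among all genes with a peak in the same list, of the authors' fold enrichment of the strongest peak at 38 of the 39 Hox genes (columns, by cluster and paralogue number) in the 23 longer lists (rows), light grey where no peak was called. Hoxa3 to Hoxa6 carry H3K18ac at 48 h. For H3K27ac they rank above the other genes shown, at the 49.3rd to 60.8th percentile at 0 h. The BRG1 row is grey at most genes.

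PHF10 was present at most Hox genes before TGFβ1. In control cells at 0 h it was called at 31 Hox genes in replicate 1 (42.0% of all genes) and at 32 in replicate 2 (53.0%). Both replicates called it at 28 (39.5% of all genes, and 57.3% of those with H3K4me3), 1 of 2 at 7, and neither at 4. The clusters had similar shares: replicate 1 called 10 of 11 Hoxa, 7 of 10 Hoxb, 6 of 9 Hoxc and 8 of 9 Hoxd genes, and replicate 2 called 9, 8, 7 and 8. By position the counts were 6 of 8 anterior, 12 of 15 central and 13 of 16 posterior genes in replicate 1, and 6, 12 and 14 in replicate 2. PHF10 thus spread over all 4 clusters, where the highest H3K27ac values of Hox genes lay in Hoxa. Peaks were about as strong as elsewhere, with a median of 9.50-fold against 9.51 at all genes in replicate 1 and 3.84 against 3.98 in replicate 2, and these scales differ between the replicates.

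Hox windows were dense in PHF10 for their length. They held 8.87 and 10.2 peaks per 100 kb in the replicates, against 0.867 and 1.13 over all genes, and PHF10 covered 5.77% and 5.37% of their bases against 0.540% and 0.724%. Within 2 kb of a start, a window of 1 length for every gene, 16 and 15 of 22 Hox genes had PHF10 (72.7% and 68.2%), against 36.5% and 47.7% of all genes. Hoxa3 and Hoxa4 shared a peak in both replicates (13.8-fold and 5.02-fold). Hoxb2, a hindbrain gene, led in replicate 1 (14.1-fold) but was low in replicate 2 (3.46-fold, 14.1st percentile of that list). Hoxc9 led in replicate 2 (5.17), with 12.4 in replicate 1. The Hoxc9 peak lay inside the gene in both (chr15:102981762-102982295 and chr15:102981691-102982223).

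After TGFβ1, PHF10 was called at all 39 Hox genes at 24 h (66.0% of all genes) and in both replicates at 48 h (69.8% and 79.0%, and 69.1% in both). Untreated libraries had 31.5 ± 0.71 such genes (SD, n = 2) and 48 h libraries 39 ± 0 (SD, n = 2), a difference of 7.5 with no overlap of the groups. The exact two-sided permutation test gave p = 0.3333, the smallest that 2 libraries against 2 can give. The 4 Hox genes with PHF10 in both 48 h replicates and neither 0 h replicate (15.5% of all genes) were Hoxb1, Hoxb13, Hoxc4 and Hoxc10, and the same 4 were those with it at 24 h and in neither 0 h replicate (11.4%). The higher count at 48 h went with longer lists (43549 and 102434 peaks against 11285 and 14731) and turned round under stricter calling, where the 0 h replicates stood far apart. Peaks of at least 5-fold gave 28 and 3 genes in 0 h replicates 1 and 2 and 1 and 0 in the 48 h replicates. Peaks with a −log10 q of at least 5 gave 27 and 1 at 0 h and 6 and 13 at 48 h. Without 0 h replicate 1 the difference in means of 48 h minus 0 h was 8.5 genes at the q limit and -2.5 at 5-fold, so the turn at the q limit rests on that library, as does most of the difference at 5-fold. Fold scales differed between the 0 h replicates, with medians of 9.51 and 3.98 at all genes. Lists of equal length gave 31 and 24 genes at 0 h and 10 and 11 at 48 h, a difference in means of -13.5 without 0 h replicate 1.

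The 4 genes with PHF10 in treated cells and not at 0 h differed in their marks. At Hoxc4, the PHF10 fold was 4.16 at 24 h and 5.42 and 3.48 in the 48 h replicates, the highest Hox value in replicate 1 (chr15:103032716-103032960). Hoxb1, a hindbrain gene, had 3.92, 2.83 and 2.85, and Hoxc10 had 3.58, 2.91 and 3.39. Hoxb13 had 2.81, 2.70 and 3.16, the lowest Hox value at 24 h. None of the 4 had H3K27ac or H3K18ac at either time or H3K14ac at 0 h, and 3 of them (Hoxb13, Hoxc10 and Hoxb1) had the 3 lowest H3K4me3 values at 0 h. Hoxc4 had 11.9-fold H3K4me3 and 4.10-fold H3K4me1 at 0 h, the latter at the 75.6th percentile of its list, and it was also 1 of the 6 genes with BRG1.

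PHF10 covered more of the clusters in the longer lists of treated cells, with 17.6% of Hox bases at 24 h and 21.1% and 34.1% at 48 h, against 1.40%, 2.26% and 5.71% over all genes. Median peak width at Hox genes was 536 and 397 bp at 0 h, 683 bp at 24 h, and 958 and 1355 bp at 48 h, against 511, 524, 546, 594 and 620 bp over all genes. At 48 h the strongest peaks were at Hoxb8 (4.21-fold), Hoxb6 (4.09) and Hoxc6 (4.04) in replicate 2, and in replicate 1 at Hoxc4 (5.42), Hoxb3 (4.73), and Hoxa3, Hoxa5 and Hoxa6 (4.08). At 24 h they were at Hoxa3 (6.92), Hoxb8 (6.03) and Hoxb6 (5.94). Hoxa3, Hoxb6 and Hoxb8 recur by name in these lists, but at Hoxa3 and Hoxb8 the peaks were different ones. The Hoxa3 peak lay at chr6:52168632-52169035 at 24 h and at chr6:52202698-52204715 in 48 h replicate 1. The Hoxb8 peak lay at chr11:96282968-96283460 at 24 h and at chr11:96279354-96280026 in 48 h replicate 2. In 48 h replicate 1 Hoxb8 had 2.99-fold (26.5th percentile). The part that list length has in the widths was not tested.

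In KO cells PHF10 was called at 31 Hox genes at 0 h (46.3% of all genes), against 31 and 32 in the control replicates, and at 39 at 48 h (82.9%), against 39 and 39. The count at 48 h is at its ceiling in all 3 lists and can show no difference. Reduced to equal length, the 48 h lists gave 39 and 34 genes in the control replicates and 27 in KO. At 0 h the KO list gave 19 genes at a −log10 q of at least 5 and 18 at 5-fold, values between those of the control replicates given above. Both comparisons rest on 1 KO library, so there is no test, and the KO comparisons use the same control libraries as the time comparison. At 0 h, Hoxb7 and Hoxc8 had PHF10 in both control replicates and not in KO (2 genes, with 1.17% of all genes in that class). Their control values were 7.01-fold and 4.78-fold at Hoxb7 and 5.81-fold and 3.84-fold at Hoxc8, and both had PHF10 in KO at 48 h (4.07 and 3.53). Hoxb8 shares those control peaks with Hoxb7, and in KO its window held a peak of 3.61-fold at another position (chr11:96283008-96283311). No Hox gene had PHF10 in KO and neither control replicate at 0 h (0.987% of all genes).

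With all 39 genes called in every 48 h list, none could be in both control replicates and not in KO (0.114% of all genes) or in KO alone (3.93%). Within KO cells, 8 Hox genes had PHF10 at 48 h and not at 0 h, against 36.7% of all genes: Hoxb1, Hoxb7, Hoxb13, Hoxc4, Hoxc6, Hoxc8, Hoxc10 and Hoxd12. Of the 26 PHF10 sites at Hox genes found in both control replicates at 0 h, 22 (84.6%) were overlapped by a KO peak, against 96.2% of 8147 such sites at all genes. At 48 h, 67 of 68 sites (98.5%) were overlapped in KO, against 98.0%. The strongest KO peaks at 0 h were at Hoxc12 (7.95-fold, 94.0th percentile) and at Hoxd10 and Hoxd11 (7.03), and at 48 h at Hoxc13 (4.42), Hoxa7 (4.34) and Hoxa2 (4.32). PHF10 covered 42.4% of Hox bases in the 48 h KO list of 158815 peaks, against 10.3% over all genes.

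BRG1 was called at few Hox genes. Although it is the motor of the complexes that PHF10 belongs to, its 0 h list placed it at 6 of 39 Hox genes, against 47.6% of all genes, 62.9% of genes with H3K4me3 and 74.8% of genes with PHF10 in both replicates. They included Hoxa3, Hoxa10, Hoxa11, Hoxb6 and Hoxc4, and no Hoxd gene had it. PHF10 in both replicates without BRG1 was found at 24 Hox genes, a class that holds 9.93% of all genes. It was not particular to them, since 16 of 31 homeobox genes outside the clusters and 4 of 12 genes next to them were in it. BRG1, PHF10 and H3K4me3 at the same gene at 0 h were found at 4 (Hoxa3, Hoxa10, Hoxa11 and Hoxb6), against 29.5%. Within 2 kb of a start, 2 of 22 Hox genes (9.09%) had BRG1, against 34.6% of all genes, and within 2 kb of either gene end 3 of 39 (7.69%), against 36.7%.

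The gap was present at single sites too. None of the 26 PHF10 sites of both replicates at Hox genes overlapped a BRG1 peak, against 55.6% of 8147 sites at all genes, although all 26 lay on H3K4me3 (99.9% over all genes) and all 26 on H3K4me1 (53.5%). H3K27ac lay on 20 of the 26 (76.9%, against 96.7%) and H3K14ac at 0 h on 5 (19.2%, against 36.0%). Of the 97 H3K4me3 peaks at Hox genes, 3 overlapped BRG1 (3.09%, against 28.0%), as did 2 of 38 H3K27ac peaks (5.26%, against 44.4%). Counted per length, BRG1 stood closer to the genome, with 1.30 peaks per 100 kb of Hox windows against 1.74 over all genes, while PHF10 and H3K4me3 were several times denser in Hox windows.

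The 5 BRG1 peaks were weak, with up to 3.48-fold and a −log10 q of up to 2.28, and none remained at a −log10 q of at least 5 or at 5-fold. A peak of 1216 bp at Hoxa10 (chr6:52239867-52241082) covered the upstream promoter whose sequence is given, together with H3K4me3 and H3K27ac and without PHF10 at 0 h. The strongest, 222 bp inside Hoxa3 (chr6:52184236-52184457, 3.48-fold), and the peak in Hoxc4 (chr15:103033920-103034155, 2.89) overlapped no H3K4me3. Counted from the BRG1 side, 3 of the 5 peaks overlapped H3K4me3 of 0 h (60.0%, against 35.0% of BRG1 peaks at all genes) and 2 overlapped H3K27ac of 0 h (40.0%, against 38.9%). PHF10 of 1 or both 0 h replicates overlapped 1 of the 5 (20.0%, against 29.5%), and all 5 were overlapped by PHF10 of 1 or both 48 h control replicates (50.9% at all genes) and of KO at 48 h (59.5%). BRG1 was called with 1 library, and whether a deeper library would call more of these sites was not tested. In the list as a whole the median fold at genes was 2.87, so weak peaks were common in it.

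**Figure D4:**
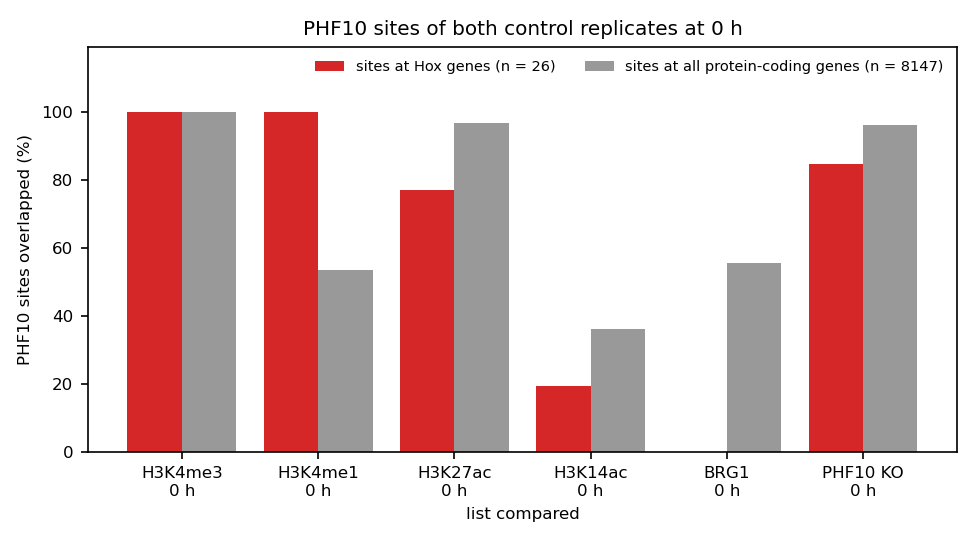
Percentage of PHF10 sites called in both control replicates at 0 h (vertical axis) that were overlapped by at least 1 bp of a peak in each list named on the horizontal axis, for 26 sites at Hox genes (red) and 8147 at all protein-coding genes (grey). BRG1 overlaps 0 Hox sites against 55.6% of all sites, and H3K4me1 overlaps all 26 against 53.5%.

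ATF3 was called at 0 Hox genes at 0 h, at 4 at 24 h in control cells (10.3%, against 5.20% of all genes), and at 39 at 48 h (71.0% of all genes). Its control lists held 20, 2004 and 45716 peaks at these times, so the counts follow list length, and the times were not compared by a test. The 4 at 24 h were Hoxa13, Hoxc5, Hoxc6 and Hoxd10, with 3.65-fold to 4.34-fold, and none of them had ATF3 in the short KO list of 24 h (5.19% of all genes share that pattern). At 48 h in control cells the highest values were 13.9-fold at Hoxa13 (chr6:52259591-52260339), a limb and genital tract gene, 13.5 at Hoxd3 and 13.2 at Hoxd12 and Hoxd13. Around starts (2 kb to either side), control ATF3 at 48 h was called at 21 of 22 Hox genes (95.5%), against 63.0% of all genes. Control ATF3 at 48 h had 113 Hox peaks, 29.5 per 100 kb against 3.00 over all genes, and ranked at the 62.6th percentile in the median. All 113 overlapped PHF10 of 1 or both 48 h replicates (95.2% over all genes), 98 overlapped H3K4me3 of 0 h (86.7%, against 70.9%), and 1 overlapped BRG1 (0.885%, against 21.7%).

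In KO cells at 48 h ATF3 was called at 38 Hox genes (78.8% of all genes). The missing gene was Hoxa13 (control only, 2.26% of all genes), which had the highest control value. With peaks of at least 5-fold the counts were 39 in control and 11 in KO, but fold values in the 2 lists have different scales, with medians of 6.98 and 3.45 at all genes. The highest KO values were at Hoxb7 and Hoxb8 (6.76-fold, 97.1st percentile) and Hoxc12 (5.67). Hoxb1 was lowest in KO (2.44) and Hoxb13 in control (6.43). Of the 113 control peaks, 80 (70.8%) were overlapped in KO, against 73.7% at all genes, so the overlap at Hox genes was near that of the genome.

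FOSL2, the AP-1 factor with the longest FOS-family lists, had no peak at a Hox gene. At 48 h it was called at 0 members in control (6.81% of all genes) and 0 in KO cells (12.8%). The nearest control peaks lay 81014 bp from Hoxc, 175918 bp from Hoxb, 325802 bp from Hoxa and 923837 bp from Hoxd. In KO cells they lay 333645, 175839, 70446 and 807671 bp away in the same order. The peak nearest to Hoxb was common to both lists (chr11:96018105-96018398, 8.85-fold in control, and chr11:96018087-96018477, 16.0-fold in KO). Over windows of all genes FOSL2 had 0.164 peaks per 100 kb in control and 0.356 in KO, so few would be found in 383440 bp at that rate. Within 2 kb of a start, 1.10% and 2.33% of all genes had it, against 0 of 22 Hox genes.

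**Figure D5:**
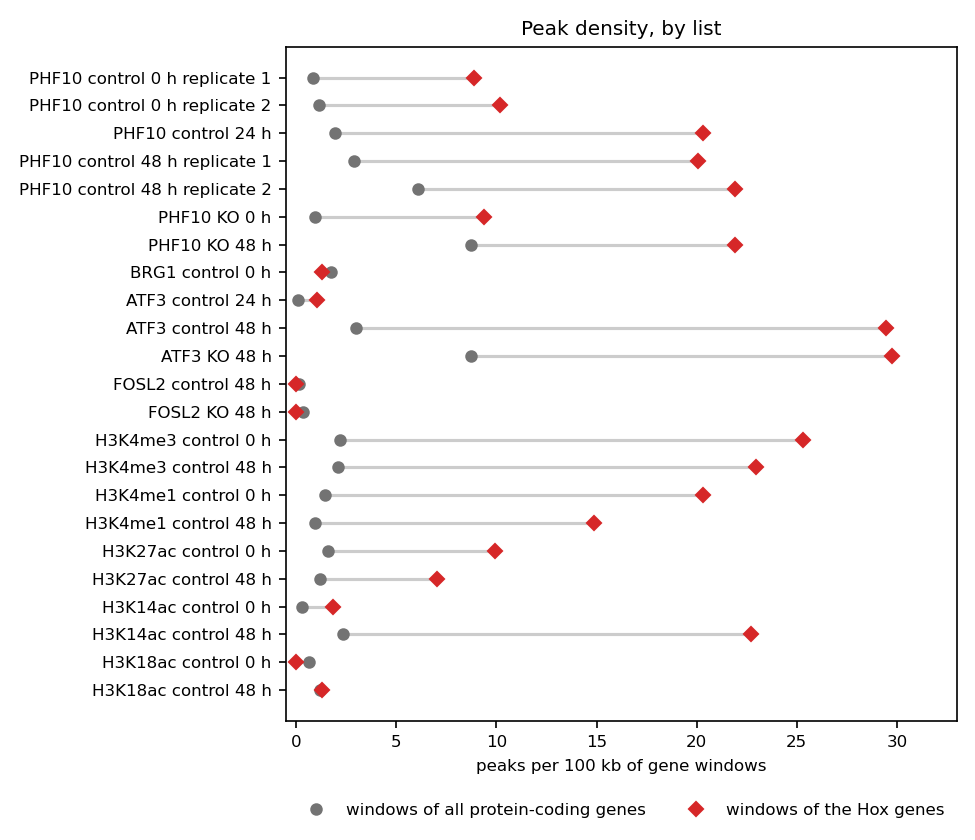
Peaks per 100 kb of gene windows (horizontal axis) in the 23 longer lists, for windows of the Hox genes (red diamonds) and of all protein-coding genes (grey circles). PHF10, ATF3 at 48 h, H3K4me3, H3K4me1 and H3K14ac at 48 h are several times denser in Hox windows, and BRG1 and H3K18ac at 48 h lie close to all genes. Hox spans are shorter than those of all genes (medians of 3737 and 17169 bp), and the part of this in the densities was not tested.

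Genes whose products act on the Hox clusters or bind DNA with Hox proteins were counted in the same way. Over all genes, 47.6% had BRG1 and 52.6% had H3K27ac at both times, and 24 of the 39 Hox genes (61.5%) had H3K27ac at both times. Of 18 Polycomb subunit genes, 17 had BRG1 at 0 h, 16 together with PHF10 in both replicates, and all 18 had H3K27ac at both times. Of 13 trithorax-group genes, 12 had BRG1, and 12 had H3K27ac at both times with Rbbp5 as the exception, which had it at 0 h. The 9 TALE genes, whose products (Pbx, Meis and Pknox proteins) bind DNA with Hox proteins, all had H3K27ac at both times, and 7 had BRG1. Of 9 retinoic acid receptor and Cdx genes, known regulators of Hox clusters, 6 had BRG1 and 6 had H3K27ac at both times. The difference between these lists and the Hox genes was not tested.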

How the data were processed

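ChIP-seq peak lists were used as deposited, 32 lists of 1 library each against an input, in mm10. MACS3 3.0.0a7, Bowtie2 2.3.3, deepTools 3.5.1, fastp 0.19.5 and Partek 11.0.24.0325 are listed, without settings, in the submitters' processing notes. Each peak carries the deposited pileup signal (not used), the deposited −log10 p-value and q-value, and the authors' fold enrichment, a ratio of ChIP over input. The −log10 q reached down to 1.00 in the 8 PHF10 and BRG1 lists and to 1.30 in the other 24, so thresholds differed between antibodies. The 0 h lists of H3K14ac and H3K18ac have a header line and rounded values, unlike the others. Starts were taken as counted from 0 in the files and are printed counted from 1.

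Gene spans are those of a GRCm38.p6 RefSeq table without strand. A peak was called at a gene on an overlap of 1 bp with the span extended by 2 kb (Python 3.11.15, pandas 2.3.3, NumPy 2.4.6). PHF10 sites of both replicates are joined overlapping peaks of both lists. An exact permutation test compared the PHF10 counts of 48 h and 0 h; no other comparison had replicates in both arms, and none was tested. The overlap code was checked on simulated intervals.

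Members and lists were chosen with earlier results of these data known. Genes were named where they had a peak in 1 arm only, where they were among the 3 with the highest fold in a list, and where they had BRG1, PHF10 and H3K4me3 together. Further genes given beside these, such as neighbours along a cluster, were chosen after their values were seen. The other lists were TALE cofactors, Polycomb subunits, the trithorax group, retinoic acid and Cdx regulators, flanking genes, other homeobox genes, and epithelial and other cell type markers. Alternatives were a −log10 q of at least 5, a fold of at least 5, the span alone, 10 kb to either side, 2 kb around starts, an overlap of 50% of the peak, lists of equal length, each PHF10 replicate left out and the replicate block. The 15 inputs have no list. Single values of 1 member and of 1 other homeobox gene are not reported here, though both are in the counts.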

Additional observations from a re-analysis of the deposited data

How the results depend on the processing

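Of 99 alternative values over 11 comparisons, 63 kept direction and size, 25 moved and 11 changed direction. Of the 63, 8 (FOSL2) had 0 genes in both arms and 13 had equal counts, among them 8 for H3K4me3 at or near its ceiling, and the 10 for PHF10 over time kept direction alone. The PHF10 difference of 7.5 genes became -4.5 at a −log10 q of at least 5, -15.0 at 5-fold and -17.0 with lists of equal length. The first of these rests on 0 h replicate 1 (27 genes, against 1 in replicate 2), without which it is 8.5, and at 5-fold (28 against 3) the difference without it is -2.5. Leaving out 1 PHF10 replicate gave 7.0 to 8.0. With the replicate number as a block the difference stayed 7.5. The exact permutation within pairs gave p = 0.5, the smallest that 2 pairs can give. Differences in gene calls between the replicates at 0 h and at 48 h correlated at r = -0.0475 over genes. Whether libraries of the same number share a culture or batch is not given, and this correlation of calls cannot decide it. KO minus control PHF10 at 0 h (-0.5) was 5.0 at the q limit, 2.5 at 5-fold, 0.5 in the span alone, 3.5 at equal length, 0.0 within 10 kb and with 50% overlap, -1.5 around both gene ends, and -1.0 to 0.0 without a replicate. Its values at the q limit and at 5-fold have no steady sign, since KO (19 and 18 genes) lies between the control replicates. At 48 h (0.0) it was 1.5, -0.5, 0.5 and -9.5 under the first 4 of these and 1.0 around starts. KO minus control ATF3 at 48 h (-1.0) was -10.0 at the q limit and at equal length, -28.0 at 5-fold, -2.0 in the span and 0.0 within 10 kb. BRG1 minus PHF10 (-25.5) was -14.0 at the q limit, -15.5 at 5-fold and -13.5 around starts. For 48 h minus 0 h, H3K4me1 (-3.0) was -1.0 at the q limit and around starts, 32.0 at 5-fold and 5.0 at equal length. H3K27ac (-4.0) was -9.0 at 5-fold, 2.0 at equal length, -1.0 around starts and -7.0 around both ends. H3K14ac (30.0) was -8.0 at equal length and 17.0 around starts, and H3K18ac (6.0) was 1.0 around starts. Counts around starts cover 22 genes. The windows around both gene ends, and the counts per PHF10 library under the limits, were chosen after seeing the data. Apart from the fewer genes around starts, the cause of these shifts was not tested. Unknown depth and single libraries limit every count.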

Other observations

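Homeobox genes outside the clusters were counted in the same way. There were 31 such genes, members of the Dlx, Msx, Pitx, Irx, En, Lhx, Otx and Nkx families among them. Of these, 29 had PHF10 in both control replicates at 0 h (39.5% of all genes). All 31 had H3K4me3 (68.8% of all genes) and H3K4me1 (41.9%) at 0 h. BRG1 was called at 13 of them (41.9%), against 47.6% of all genes and 6 of 39 Hox genes. PHF10 in both replicates without BRG1 was found at 16 of the 31, against 24 of 39 Hox genes and 9.93% of all genes. The 13 with BRG1 included Dlx1, Dlx2, Msx1, Irx3 and Lhx2, factors of limb, craniofacial and neural development. H3K18ac was called at 1 of 31 at 0 h (18.8% of all genes) and at 13 at 48 h (41.9%, against 38.0%). The difference between these genes and the Hox genes was not tested. H3K4me3 without H3K27ac at 0 h was found at 5 of the 31 (Dlx5, Dlx6, Irx4, Irx6 and Otx2), a class that holds 7.68% of all genes.

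Of the 12 genes next to the clusters, 8 had BRG1 (66.7%, against 47.6% of all genes), and 6 had PHF10 in both 0 h replicates, against 39.5% (Evx1, Evx2, Snx10, Smug1, Lnpk and Mtx2). Evx2, the homeobox gene beside Hoxd13, and Lnpk, the gene that follows it, had both. Evx2 and Skap1 had H3K4me3 without H3K27ac at 0 h, and Skap1, beside Hoxb, had H3K27ac at 48 h. FOSL2 was called at 1 of the 12 (8.33%) in each 48 h list, against 6.81% of all genes in control and 12.8% in KO. The difference between the neighbours and the Hox genes was not tested.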
